A study of Mus musculus with 6 samples.

Results

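The genes described here encode the aminoacyl-tRNA synthetases of the cytosol and of the mitochondrion, together with the scaffold proteins of the multi-synthetase complex. They were taken by gene name from a deposited table of 27179 rows, which held each of the 39 names once. Of the 39, 20 were cytosolic enzymes, 16 mitochondrial enzymes, whose names end in 2, and 3 scaffolds, Aimp1, Aimp2 and Eef1e1. The RNA came from mouse embryonic fibroblasts of the genotype Cas9+;E1A;HrasG12V, which all 6 libraries shared: Cas9, the adenoviral E1A oncogene and an activated Hras allele. Lentivirus carried in the guide RNAs, and after selection the cells grew for 10 days before RNA was taken. The 3 control libraries had negative control guides named EV, SPA and ACOCA, and the 3 knockout libraries had Zmat3 guides 52.6, 51.5 and 54.8. Zmat3 is a p53-induced gene for an RNA-binding zinc finger protein, and the comparison asks how transcript levels differ once it is disrupted. The labels do not say that any library was a single clone, nor whether the cells shared a starting culture.

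An aminoacyl-tRNA synthetase joins an amino acid to its cognate tRNA, and so supplies the charged tRNAs that ribosomes use. Cytosolic and mitochondrial translation draw on separate enzymes, mostly from separate genes of the nucleus, while the products of Gars and Kars serve both compartments. In mammalian cells several cytosolic enzymes sit in a multi-synthetase complex held together by Aimp1, Aimp2 and Eef1e1. Many cytosolic synthetase genes are known targets of Atf4, the transcription factor of the amino acid response. The members were chosen with earlier results of this knockout comparison known, so their differences between the groups are given as a description, without a test of the set.

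Values are normalised read counts, that is reads per gene divided by 1 size factor per library. Depth ran from 53253055 to 90256118 reads per library, and each member had at least 519.6 normalised counts in each library. Zmat3 stood at 17169, 15868 and 17434 in control libraries 1 to 3 and at 11421, 4912 and 4959.9 in knockout libraries 1 to 3, so the knockout libraries kept 67.9%, 29.2% and 29.5% of the control mean. Control library 3 stood apart from the other 5, and values without it are given beside the results that it moves. Of the fibroblast markers, Vim and Fn1 were abundant, with Vim at 150396 or more in each library. Lum was at 0 in each library, Thy1 was at most 5.42 and Col1a2 at most 14.2. Col3a1 stood at 2424, 2407 and 198 in control libraries 1 to 3 and at 2987, 3512 and 3546 in knockout libraries 1 to 3. Pdgfra had 2299, 1525 and 425 in the controls and 2384, 2351 and 1862 in the knockouts. Pdgfrb had 3982, 3603 and 1407 in the controls and 4650, 4165 and 3578 in the knockouts. Col1a1, Dcn and Fn1 were also lowest in control library 3, while Vim was highest there. The epithelial adhesion gene Epcam stood at 24986, 18992 and 3574 in control libraries 1 to 3 and at 22386, 25182 and 19711 in knockout libraries 1 to 3. Summed epithelial markers ran from 3742 to 25147 in control and from 19937 to 25305 in knockout, with Krt5 at 0 in each library. Summed leukocyte markers were higher in the knockout libraries, at 7172 to 9245 against 818 to 6055, nearly all of it Cd68, and summed neural markers were lower, at 12614 to 14847 against 16697 to 21141. The part of these markers in the results below was not tested. The leukocyte gene Ptprc was at most 8.26 and the muscle gene Myod1 at 0 in each library. In bulk RNA, fewer cells of a type and less RNA per cell cannot be told apart.

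Transcripts of the cytosolic synthetases were lower in the Zmat3 knockout libraries, while those of the mitochondrial enzymes were lower in some genes and near the control level or above it in others. The 20 cytosolic genes took 0.579%, 0.587% and 0.683% of all reads in control libraries 1, 2 and 3. In knockout libraries 1, 2 and 3 they took 0.406%, 0.424% and 0.413%, so the groups did not overlap. The 16 mitochondrial genes took 0.147%, 0.124% and 0.127% in control and 0.128%, 0.126% and 0.134% in knockout, and these ranges overlapped. That overlap rests on Lars2, the most abundant of them, which alone took 0.0897%, 0.0627% and 0.0514% in control and 0.0723%, 0.0699% and 0.0781% in knockout. The other 15 mitochondrial genes together took 0.0578%, 0.0609% and 0.0757% against 0.0559%, 0.0559% and 0.0561%, lower in each knockout library. Over genes, the median log2 fold change (knockout minus control, limma on log2(value + 1)) was -0.69 for the cytosolic class, -0.20 for the mitochondrial class and -0.58 for the scaffolds, against 0.015 over all 14777 genes tested. Negative fold changes were found in 19 of 20 cytosolic, 13 of 16 mitochondrial and 3 of 3 scaffold genes, against 48.4% of all genes, and without control library 3 in 19, 12 and 2, against 49.1%. Without control library 3 these medians were -0.60, -0.08, -0.11 and 0.005.

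The class medians of single libraries show the same order. As log2 deviations from the control mean, the cytosolic median was -0.15, -0.11 and 0.26 in the controls (libraries 1 to 3 in order) and -0.79, -0.66 and -0.76 in the knockouts. The mitochondrial median was -0.18, -0.10 and 0.25 in control and -0.18, -0.26 and -0.14 in knockout. In the control libraries the 2 classes moved together, with a difference between their medians (cytosolic minus mitochondrial) of 0.02, -0.01 and 0.01. In the knockout libraries that difference was -0.61, -0.39 and -0.62, outside the control range in each. The difference between the 2 class medians of fold changes was -0.49, where the SD between libraries of a group was 0.0923. Each gene was centred on the mean of these same 3 controls, which draws the control medians and their differences towards 0. The members were also chosen with this comparison known, so these values are a description and not a test.

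**Figure D1:**
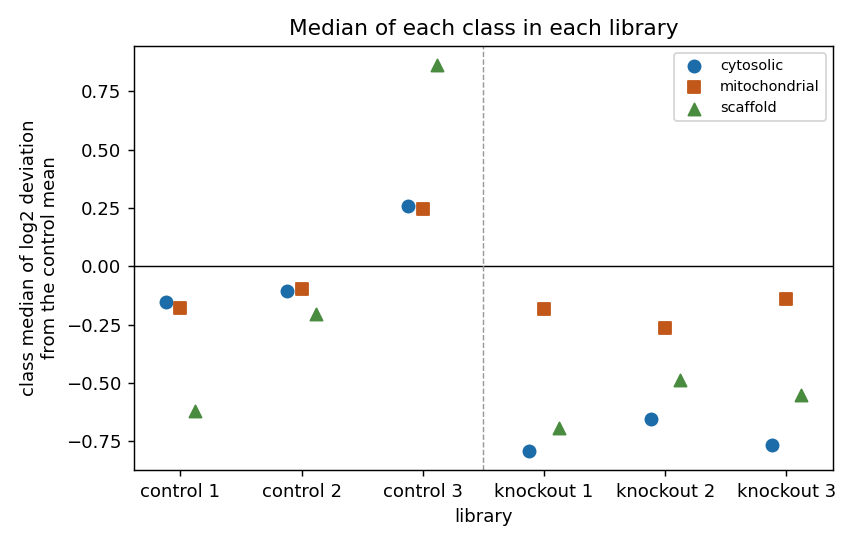
Median log2 deviation from the control mean (y axis) of the 20 cytosolic, 16 mitochondrial and 3 scaffold genes in each of the 6 libraries (x axis). Cytosolic medians lay between -0.79 and -0.66 in knockout, below all 3 controls, while mitochondrial medians lay between -0.26 and -0.14, within or near the control range.

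Limma called none of the 39 members at an FDR of 0.05, and it called 0% of all genes, with 16 members and 13.2% of all genes at an unadjusted p under 0.05. The smallest limma adjusted p was 0.331, among all genes and among the members alike. EdgeR's quasi-likelihood test on the recovered reads also called 0% of genes, with 19 members and 13.4% of all genes at an unadjusted p under 0.05. Without control library 3 limma and edgeR each called 0.0334% of genes and no member, with a smallest limma adjusted p among the members of 0.0846. DESeq2 on all 6 libraries called 0.891% of genes, and called 11 members lower and none higher, against 0.47% of all genes called lower and 0.421% higher. The 11 were all cytosolic: Iars, Nars, Mars, Yars, Wars, Lars, Gars, Vars, Eprs, Aars and Cars. With control library 3 left out, 15 members were called lower by DESeq2, against 5.49% of all genes called, 2.87% lower and 2.62% higher; these were the same 11 with Sars, Rars, Tars and the mitochondrial Tars2. Leaving out each library in turn changed this count from 3 without knockout library 3 (0.148% of all genes) to 19 without control library 1 (14.8%), and Lars, Nars and Yars were called in each of the 6 cases. It was 4 without knockout library 2 (0.161%), 7 without knockout library 1 (0.389%) and 8 without control library 2 (0.506%). In 15 of 20 cytosolic and 4 of 16 mitochondrial genes each knockout library lay below each control library, which held for 14.4% of all genes tested. Pars2 was the only member with each knockout library above each control library, which held for 13.2% of all genes. Without control library 3 these counts were 19 lower and 3 higher (Qars, Pars2 and Aimp1), against 17.6% and 17.4% of all genes. Because the members were chosen on this comparison, nothing is read from these shares.

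**Figure D2:**
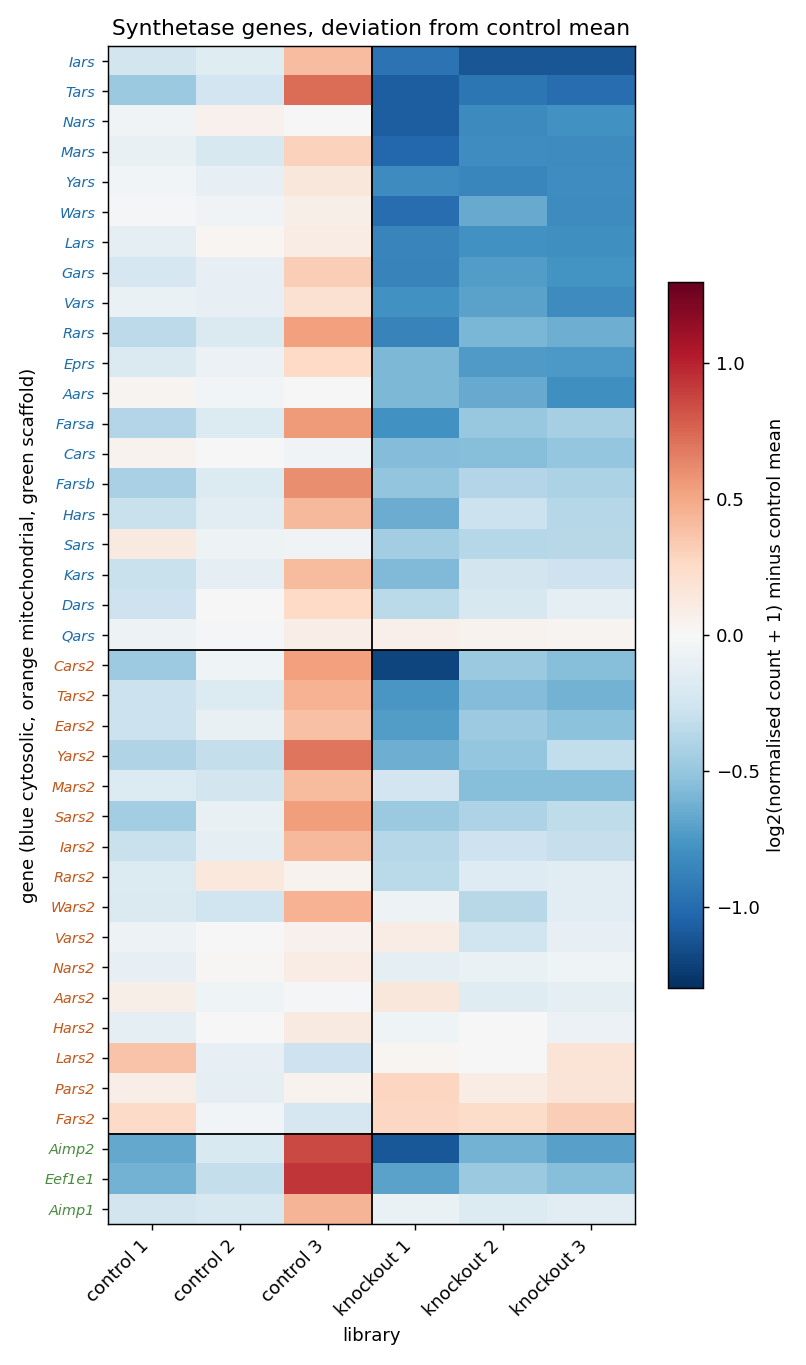
Log2(normalised count + 1) minus the control mean for the 39 members (rows, by class and then by fold change) in each library (columns). The cytosolic rows are below 0 in all 3 knockout libraries except for Qars, and control library 3 is the highest control in 30 of 39 rows, against 43.5% of all genes.

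The 8 cytosolic genes with the largest fold changes charge isoleucine, threonine, asparagine, methionine, tyrosine, tryptophan, leucine and glycine. Iars, the isoleucyl enzyme and a member of the multi-synthetase complex, stood at 25444, 27027 and 39719 in control libraries 1 to 3 and at 15493, 13920.4 and 13888 in knockout libraries 1 to 3. Each knockout library held less than any control library, and control library 3 was the highest. The means were 30729.9 ± 7825 in the controls against 14434 ± 917 in the knockouts (SD, n = 3), which gave a log2 fold change of -1.06 (SE 0.18), and -0.86 without control library 3. Tars, the threonyl enzyme, stood at 9194, 10828 and 21306 in the controls and 6099.8, 6703 and 6476 in the knockouts. Its control libraries differed more than 2-fold among themselves, with control library 3 at 2.13 times the mean of controls 1 and 2. Its log2 fold change was -1.0 (SE 0.30), and -0.64 without control library 3.

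Nars, the asparaginyl enzyme, had even controls, with 29723, 31879 and 30656 in the controls and 14652, 17281 and 17759 in the knockouts. The knockout libraries lay near 53.9% of the control mean, and the log2 fold change of -0.90 (SE 0.12) was -0.90 without control library 3. Mars, the methionyl enzyme, had 15247, 14155 and 20114 in the controls and 8015, 9307 and 9244 in the knockouts, a log2 fold change of -0.88 (SE 0.16). The exons of Mars share 68 bases with Ddit3 on the opposite strand, whose level was 1150.4 ± 259 in control and 2091 ± 541 in knockout (SD, n = 3), and whether reads were assigned by strand is not given in the sources used here. Yars, the tyrosyl enzyme, had 12534, 11940.0 and 14232 in the controls and 7321, 7141 and 7356 in the knockouts, and its knockout libraries varied least of the 8 relative to their mean. Its log2 fold change was -0.82 (SE 0.11), with a DESeq2 adjusted p of 7.68e-05. Wars, the tryptophanyl enzyme, which is also interferon-induced in many cells, had 10305, 10198 and 11067 in the controls and 5288, 6678 and 5959 in the knockouts. Control library 3 was close to the other 2 controls here, and the log2 fold change was -0.82 (SE 0.12).

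Lars, the leucyl enzyme that also acts as a leucine sensor upstream of mTORC1, had 17961, 19894 and 20848 in the controls and 10763, 11349 and 11263 in the knockouts. The SD of the knockout values was 2.84% of their mean, and the log2 fold change was -0.81 (SE 0.10), with a DESeq2 adjusted p of 4.65e-05. Gars, the glycyl enzyme of both cytosol and mitochondrion, had 23169, 25151 and 33835 in the controls and 14784, 16324 and 15757 in the knockouts, a log2 fold change of -0.79 (SE 0.16) and -0.63 without control library 3. In all 8 genes the lowest control exceeded the highest knockout library, so the separation did not rest on control library 3.

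**Figure D3:**
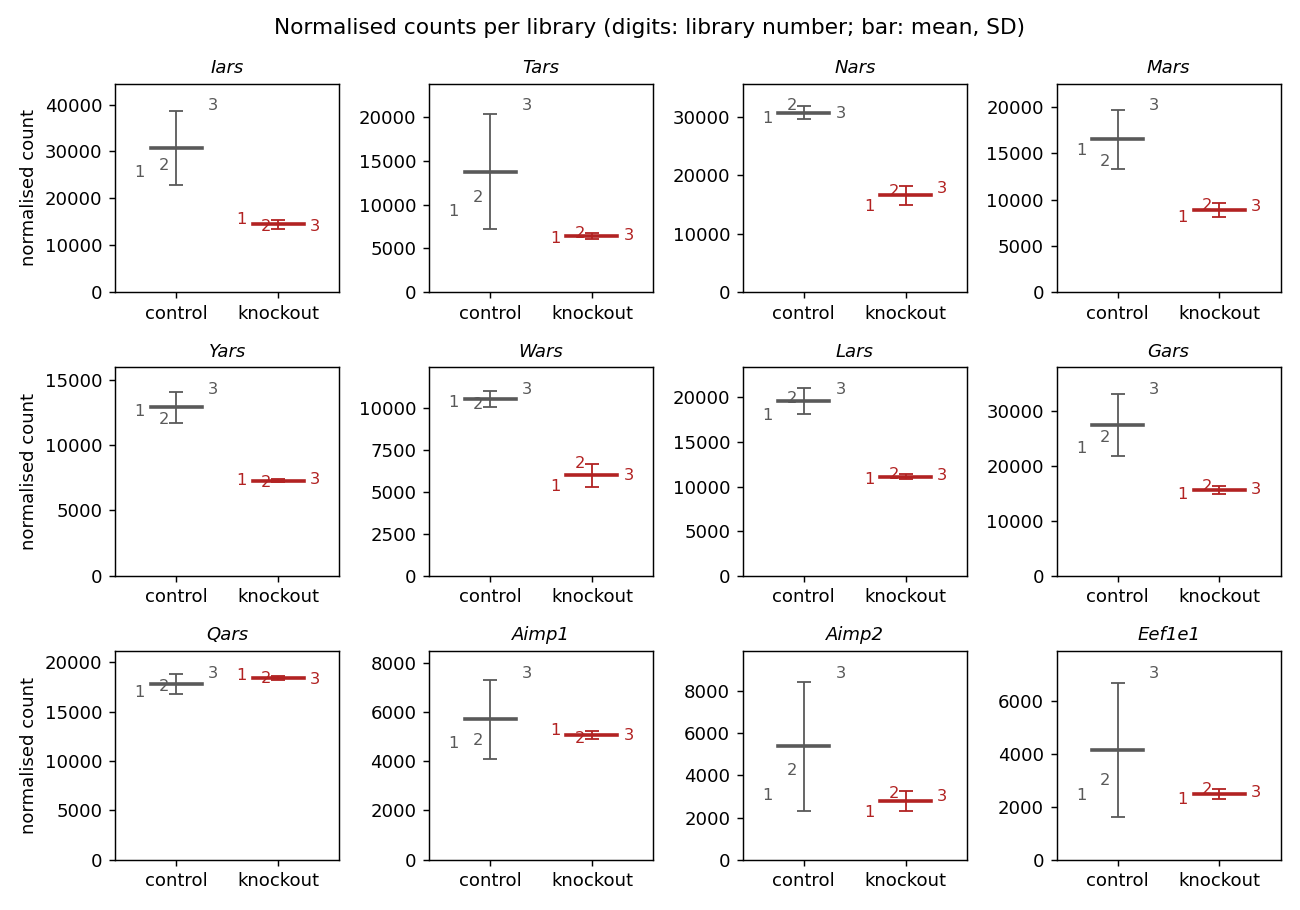
Normalised counts of 12 members (y axis from 0) in control and knockout; digits mark libraries 1 to 3, horizontal bars the mean and error bars the SD (n = 3). The first 8 genes have each knockout library below each control, Qars and the 3 scaffolds do not, and the scaffolds' high control values are those of control library 3.

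Promoter sequence was examined because synthetase genes are known Atf4 targets, and RefSeq windows (GRCm38.p6) from 250 bases before to 50 after the start site were given for 30 of the 39 members. The core letters TGATGCAA of the C/EBP-ATF response element, read on both strands, occurred in 4 of 13 cytosolic genes with a window, in 0 of 14 mitochondrial genes and in 0 of 3 scaffolds. Over all 32851 windows of the same length 0.895% held it, and 0.582% of those of genes tested. Counted by gene, it occurred in 1.03% of all genes with a window and in 0.695% of genes tested with a window. The sites of Iars, Tars and Yars are shown as examples. A match is a description of letters and not a bound site. The sites follow 5′ to 3′ on the gene's own strand, 30 bases each, with the core in capitals.
Iars: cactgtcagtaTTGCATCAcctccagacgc
Tars: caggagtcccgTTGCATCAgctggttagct
Yars: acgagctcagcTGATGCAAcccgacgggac
In GRCm38 these lie at chr13:49682126-49682155 on the plus strand for Iars, chr15:11399655-11399684 (minus) for Tars and chr4:129189895-129189924 (plus) for Yars. In Tars the core begins 15 bases before the annotated start site. In Iars and Yars it begins 7 and 3 bases after it. Yars holds the core on the gene's strand, and Iars and Tars hold its reverse complement. Cars, Hars, Lars, Nars, Rars, Vars, Wars, Hars2 and Pars2 had no window in the table.

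Among the other cytosolic enzymes, Vars (valyl) had 29737 ± 3719 in the controls against 17374 ± 768 in the knockouts, Eprs, which carries the glutamyl and prolyl activities in 1 protein, 41297 ± 6911 in the controls against 25423 ± 1641 in the knockouts, and Aars (alanyl) 30238 ± 722 in the controls against 18889 ± 1400.0 in the knockouts (SD, n = 3 throughout). Their log2 fold changes were -0.77, -0.69 and -0.68. The exons of Aars share 1326 bases with Exosc6 on the same strand, so reads there could have been counted for either gene. Rars (arginyl) had 22596 ± 7745 in the controls against 13461 ± 1363 in the knockouts, with a log2 fold change of -0.70 that was -0.43 without control library 3. Farsa, the catalytic subunit of the phenylalanyl enzyme, had 8038 ± 2882 in the controls against 5223 ± 669 in the knockouts, and Cars (cysteinyl) had 11481 ± 362 in the controls against 7900.1 ± 193 in the knockouts. Farsb, the other phenylalanyl subunit, had 14249 ± 5589 in the controls against 10039 ± 481 in the knockouts, with knockout libraries 2 and 3 inside the range of the controls. The 2 subunits, which are needed together, had log2 fold changes of -0.57 and -0.44, and -0.30 and -0.14 without control library 3.

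Sars (seryl), the cytosolic gene with the highest control level per kilobase of coding sequence, had 32280.3, 28541 and 28889.5 in the controls and 21804, 23168 and 23179 in the knockouts, with no overlap and a log2 fold change of -0.39 (SE 0.11). Hars (histidyl) had 12397 ± 3378 in the controls against 9009.8 ± 1155 in the knockouts, Kars (lysyl) 18581 ± 4930.3 in the controls against 14240.4 ± 1762 in the knockouts and Dars (aspartyl) 18035 ± 3234 in the controls against 15289 ± 1218 in the knockouts, and the groups of these 3 overlapped. Their log2 fold changes of -0.44, -0.36 and -0.23 were -0.22, -0.15 and -0.10 without control library 3. Qars, the glutaminyl enzyme, was the only cytosolic member with a positive log2 fold change, 0.05 (SE 0.10), and 0.09 without control library 3. It stood at 16907, 17563 and 18843 in control libraries 1 to 3 and at 18611, 18309.8 and 18230.0 in knockout libraries 1 to 3. The knockout libraries lay within the control range, and above controls 1 and 2.

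**Figure D4:**
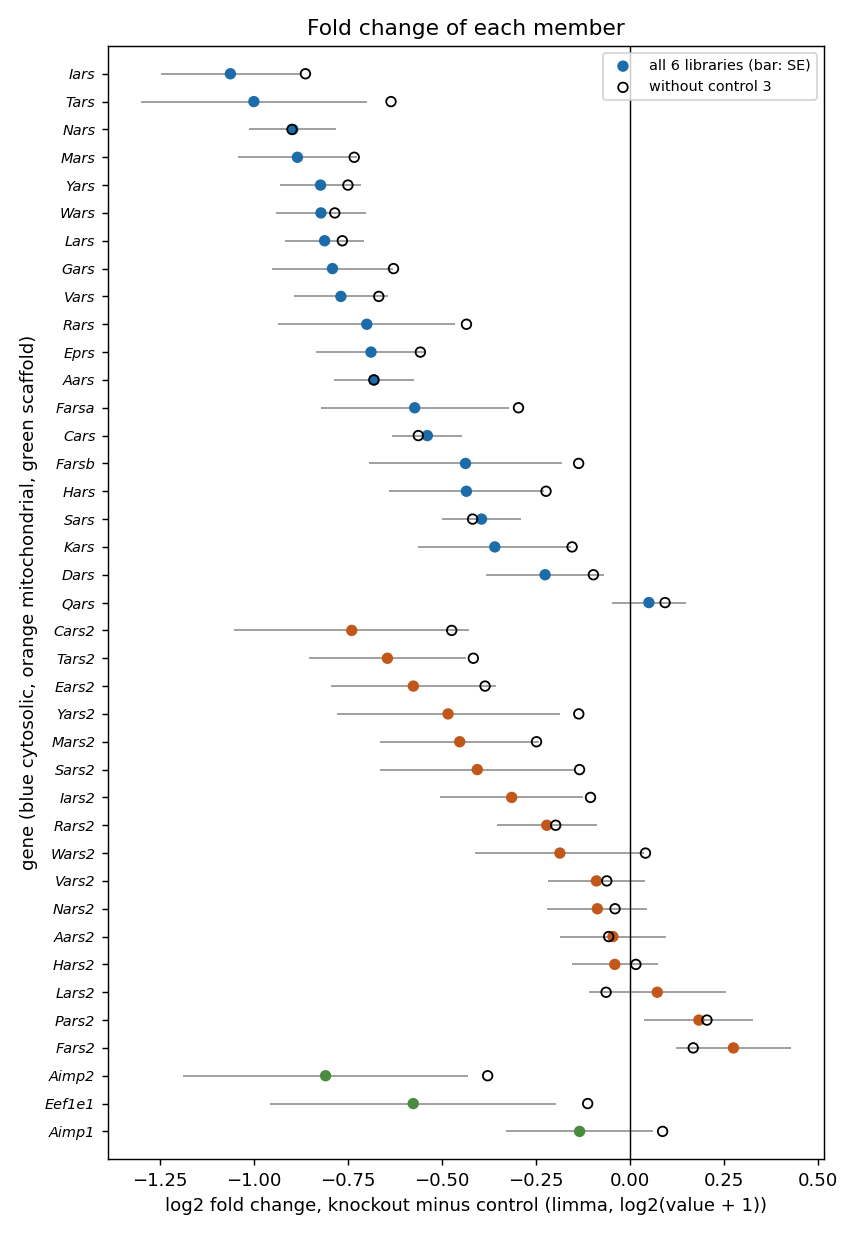
Limma log2 fold change (x axis, knockout minus control) of each of the 39 members (rows) with its SE from all 6 libraries (filled points), and the value without control library 3 (open circles). Cytosolic genes span -1.06 to 0.05 and mitochondrial genes -0.74 to 0.28.

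Enzymes inside and outside the multi-synthetase complex had close medians. The 8 enzymes of the complex (Eprs, Iars, Lars, Mars, Qars, Rars, Kars and Dars) had a median log2 fold change of -0.69 and a span from -1.06 for Iars to 0.05 for Qars. The 12 free enzymes had a median of -0.73 and a span from -1.0 for Tars to -0.39 for Sars. DESeq2 called 4 of the 8 and 7 of the 12 lower, where 0.47% of all genes were called lower. By catalytic fold, the 9 class I enzymes had a median of -0.81 and the 10 class II enzymes -0.51, with 7 and 3 called lower by DESeq2. Eprs, which joins a class I and a class II enzyme, was counted in neither. Without control library 3 the medians were -0.50 for the complex and -0.63 for free enzymes, -0.73 for class I and -0.36 for class II. These subgroup differences were not tested.

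Of the 16 mitochondrial enzymes, 13 had negative and 3 positive log2 fold changes. Cars2, the mitochondrial cysteinyl enzyme, stood at 960.2, 1286 and 1933 in control libraries 1 to 3 and at 585, 958 and 913 in knockout libraries 1 to 3. Each knockout library lay below each control, but knockout library 2 fell short of control library 1 by only a few normalised counts. Its log2 fold change was -0.74 (SE 0.31), and -0.47 without control library 3. The exons of Cars2 share 422 bases with Naxd on the opposite strand, whose mean was 3329 in control and 3732 in knockout. The part of those reads in the Cars2 value was not tested. Tars2, the mitochondrial threonyl enzyme, had 3063, 3286 and 5103 in the controls and 2196, 2514 and 2432 in the knockouts, a log2 fold change of -0.65 (SE 0.21) and -0.42 without control library 3. Ears2, the mitochondrial glutamyl enzyme, had 705, 802 and 1119 in the controls and 519.6, 617 and 594 in the knockouts, a log2 fold change of -0.58 (SE 0.22) and -0.39 without it. In both, the groups did not overlap and control library 3 was the highest library. Yars2, the mitochondrial tyrosyl enzyme, had 2035, 2155 and 4316 in the controls and 1718, 1885 and 2136 in the knockouts. Its groups overlapped, and its log2 fold change of -0.48 (SE 0.30) was -0.14 without control library 3.

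Mars2, the mitochondrial methionyl enzyme, was also lower in each knockout library, at 1667 ± 434 in the controls against 1198 ± 149 in the knockouts (SD, n = 3), with a log2 fold change of -0.45 and -0.25 without control library 3. Fars2 and Pars2 stood above control by the widest margins. Fars2, the mitochondrial phenylalanyl enzyme, had 1794, 1471 and 1300.3 in the controls and 1819, 1775 and 1884 in the knockouts, a log2 fold change of 0.28 (SE 0.15) and 0.17 without control library 3, and its groups overlapped, since control library 1 exceeded knockout library 2. Its exons share 501 bases with Nrn1 on the opposite strand, whose mean was 3646 in control and 9996 in knockout; the part of those reads in the Fars2 value was not tested. Pars2, the mitochondrial prolyl enzyme, had 1008, 868 and 978 in the controls and 1154, 1018 and 1067 in the knockouts, a log2 fold change of 0.18 (SE 0.14). The knockout libraries lay just above the highest control.

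The other mitochondrial genes overlapped between groups. Sars2, Iars2 and Rars2 had log2 fold changes of -0.41, -0.31 and -0.22, and -0.13, -0.10 and -0.20 without control library 3. Wars2, Vars2, Nars2, Aars2 and Hars2 lay between -0.19 and -0.04, and Lars2 at 0.07. Without control library 3 the sign turned for Wars2 (0.04), Hars2 (0.02) and Lars2 (-0.06). Lars2, the mitochondrial leucyl enzyme, had 57661, 41459 and 36838 in the controls and 45424, 44710.2 and 50426 in the knockouts, with control library 1 the highest and control library 3 the lowest of all 6. Iars2 had 16584 ± 4482 in the controls against 13037 ± 465 in the knockouts (SD, n = 3), and its exons share 2034 bases with Rab3gap2 on the opposite strand. Hars and Hars2 share 195 exonic bases on opposite strands.

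In all 3 scaffold genes control library 3 was the highest library. Aimp2, which bridges the complex and also binds p53, stood at 3058, 4254 and 8840.4 in control libraries 1 to 3 and at 2260.1, 3165 and 2984 in knockout libraries 1 to 3. Eef1e1, also known as AIMP3 and named for its likeness to an elongation factor subunit, stood at 2410.0, 2983 and 7039.8 in the controls and 2289.9, 2638 and 2524 in the knockouts. Aimp1, whose cleaved product acts as a cytokine, stood at 4723, 4826 and 7558 in the controls and 5254, 4919.7 and 5044 in the knockouts. Control library 3 held 2.42, 2.61 and 1.58 times the mean of controls 1 and 2, and the groups of all 3 genes overlapped. The log2 fold changes of -0.81 (SE 0.38), -0.58 (SE 0.38) and -0.13 (SE 0.19) became -0.38, -0.11 and 0.09 without that library. The exons of Aimp2 share 487 bases with Eif2ak1 on the opposite strand, whose mean was 5059 in control and 4489 in knockout. The part of those reads in the Aimp2 value was not tested.

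The members also differed in how the control libraries compared among themselves. Control library 3 was over 1.5 times the mean of controls 1 and 2 in 17 of 39 members, 7 cytosolic, 7 mitochondrial and all 3 scaffolds, against 16.2% of all genes. The median ratio over the members was 1.37, against 0.998 over all genes. Another group of 10 members had a control library 3 within 10% of the other controls, among them the cytosolic Aars, Cars, Nars, Qars, Sars and Wars. Nars, Aars, Cars, Sars and Wars thus had controls with an SD of at most 6.91% of their mean and knockout libraries entirely below them. In Tars, Farsb, Farsa and Rars control library 3 stood at 2.13, 1.86, 1.77 and 1.73 times the others.

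The knockout libraries varied less. The median coefficient of variation over the members was 6.93% in knockout and 20.7% in control, against 10.3% and 21.4% over all genes tested. Knockout library 1, which kept most Zmat3 transcript, was the lowest knockout library in 24 of 39 members, 14 of them cytosolic, against 43.4% of all genes. By class median, knockout library 1 was the lowest knockout library for the cytosolic genes (-0.79) and the scaffolds (-0.69). For the mitochondrial genes it was knockout library 2 (-0.26). How remaining Zmat3 transcript relates to lost Zmat3 function or to these levels was not tested.

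Levels were compared between genes per kilobase of coding sequence, from the GENCODE principal transcript. In control the cytosolic genes had a median of 8090.3 normalised counts per kilobase, from 4605 for Cars to 19468 for Sars. The mitochondrial genes had a median of 1070.3, from 475 for Aars2 to 16748 for Lars2. Sars (± 1345) and Nars (18338 ± 645, SD, n = 3) led the order, and Lars2 (16748 ± 4041) came next, within its SD of both. Of 13 amino acids with a cytosolic and a mitochondrial gene of the same name, the cytosolic gene had the higher level in 12, with a median ratio of 6.07, or 7.67 per kilobase of whole transcript. Per kilobase of whole transcript the order of the cytosolic genes differed, with Gars highest at 11506 and Sars at 8376 normalised counts. The ratio was 23.4 for serine and 22.5 for asparagine, down to 1.49 for isoleucine. Leucine was the exception, with Lars at 0.331 times Lars2.

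**Figure D5:**
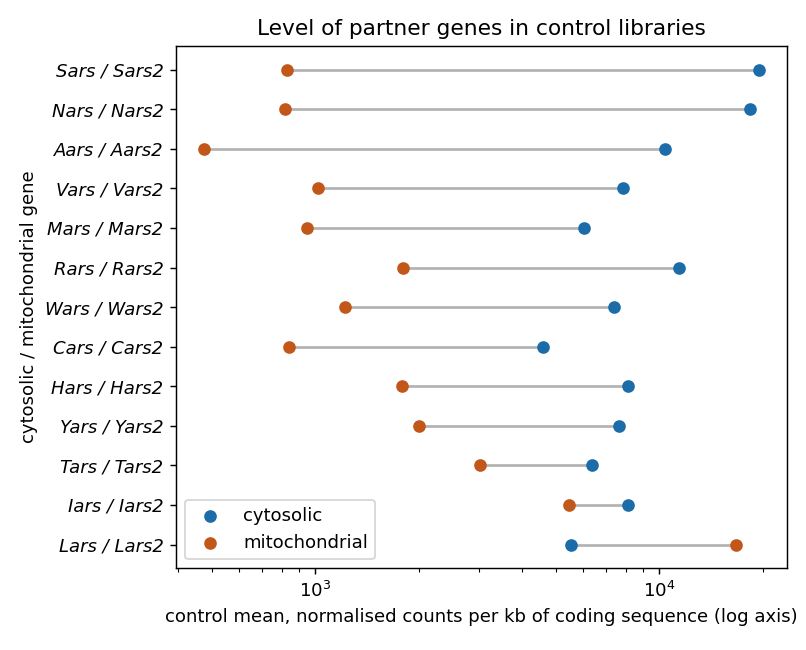
Control mean in normalised counts per kilobase of coding sequence (log x axis) of the 13 pairs of cytosolic and mitochondrial genes (rows). The cytosolic point lies to the right in 12 pairs, and Lars2 at 16748 lies above Lars at 5537.

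In the same 13 pairs the cytosolic gene had the more negative log2 fold change in 11, and in all 13 without control library 3. The median difference was -0.48, and -0.61 without that library. With all 6 libraries leucine had the widest gap, with -0.81 for Lars and 0.07 for Lars2, followed by asparagine, with -0.90 for Nars and -0.09 for Nars2. Once control library 3 was left out, the widest differences were -0.86 for asparagine, -0.83 for tryptophan and -0.76 for isoleucine, with leucine at -0.70. Cysteine and serine were the exceptions, with -0.54 for Cars against -0.74 for Cars2 and -0.39 for Sars against -0.41 for Sars2. Sars and Nars had like levels in control but stood at 76.0% and 53.9% of them in knockout.

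Other genes of tRNA charging and use gave smaller medians, and genes of the amino acid response larger ones. Of 16 partners of charging, which include the amidotransferase genes Gatb, Gatc and Qrsl1 and proofreading enzymes, 13 were below 0, and the median log2 fold change was -0.20. DESeq2 called 0, with 1 at an unadjusted p under 0.05, a level that 16% of all genes reached. The widest was Sephs2, which makes the selenium donor for selenocysteine, at -0.61 (SE 0.23), followed by Sephs1 at -0.43 and Tarsl2, a further cytosolic threonyl enzyme, at -0.36. These were -0.36, -0.25 and -0.21 without control library 3. Of 9 elongation factor genes 7 were negative, with a median of -0.37 and no DESeq2 call but 4 at an unadjusted p under 0.05. Gfm1 and Tufm, of mitochondrial elongation, had -0.60 and -0.49, and Eef1d, a subunit of the exchange factor, -0.46, which became -0.25, -0.45 and -0.11 without that library. Eef1a1, which delivers charged tRNA to the ribosome, was not lower, at 0.22 (SE 0.12), and Eef1b2 was at 0.19. In both, each knockout library lay above each control library, which held for 13.2% of all genes. In the mitochondrial factors Tufm, Tsfm, Gfm1 and Gfm2 each knockout library lay below each control library, which held for 14.4%. The groups of the cytosolic Eef1d, Eef1g and Eef2 overlapped.

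Of 28 tRNA maturation genes 26 were below 0 (median -0.30), and DESeq2 called Pop1, a subunit of RNase P. Pop1 had 2466, 3926 and 9645 in the controls and 1196, 1993 and 1781 in the knockouts, a log2 fold change of -1.49 (SE 0.49) and -0.94 without control library 3. The tRNA methyltransferase subunits Trmt61a and Mettl1 had -1.15 and -0.88, and -0.54 and -0.36 without that library. Among 18 amino acid response genes 14 lay below 0. Their median was -0.92, and -0.87 without control library 3. Calls by DESeq2 numbered 11, all of them lower, where 0.47% of all genes were called lower. The widest differences were in Chac1 at -1.87, Shmt2 at -1.54 and Slc7a5 at -1.39. The list also held 4 genes above 0, the highest at 1.14, and 3 without control library 3, the highest at 0.68. Ddit3, also on this list, had a mean of 2091 in knockout against 1150.4 in control. This list was already known to be lower in these libraries and is no independent evidence of direction. Atf4 itself had 14127, 13747 and 21865 in the controls and 11879.7, 10646 and 11196 in the knockouts, and its log2 fold change of -0.53 (SE 0.19) was -0.31 without control library 3. Without control library 3 the medians were -0.09 for charging partners, -0.11 for elongation and -0.13 for tRNA maturation, while the cytosolic synthetases stood at -0.60.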

How the data were processed

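RNA was sequenced from 6 libraries, 3 control and 3 Zmat3 knockout, prepared with Illumina TruSeq v2 according to the series' design text. The submitters' processing notes name STAR, DESeq2 and the mm10 build; which annotation, counter, strand setting and versions were used is not given in the sources used here. The deposited signal per gene has the form of reads divided by 1 size factor per library by the authors: 100% of values were whole multiples of the value of 1 read (tolerance 0.001), so whole reads were recovered. The main test was limma 3.58.1 (R 4.3.3; trend, robust) on log2(value + 1) over the 14777 genes kept by filterByExpr (minimum of 10), with p-values adjusted by Benjamini and Hochberg's method and calls at an FDR of 0.05. This scale understates changes of low genes. EdgeR 4.0.16 and DESeq2 1.42.0 were run on the recovered reads of the whole table. Limma, edgeR and DESeq2 were each run on simulated reads, and the counts of false calls are not reported here. No 2 libraries agreed within sampling noise. P-values measure the spread between these libraries, each with a guide of its own.

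The members, lists and motifs were chosen with earlier results of these data known. Values are given in each library for the 8 cytosolic and 4 mitochondrial members with the largest absolute fold change, for the cytosolic member nearest 0, for up to 2 members per class of opposite sign and for the scaffolds; from other lists up to 3 genes with a mean of at least 50 and the largest fold change are named. Eef1a1, Eef1b2, Eef1g, Eef2, Tsfm, Gfm2, Atf4, Ddit3, Nrn1, Naxd and Eif2ak1, and Sars and Lars2 in every library, were added after their values were seen. Exon overlaps and coding lengths came from GENCODE for GRCm38, the build of mm10. Of 6263 rows without a name, 4376 were given a RefSeq symbol. Some items, such as the remaining promoter site, are not reported here.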

Additional observations from a re-analysis of the deposited data

How the results depend on the processing

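The class medians kept their sign under each alternative run and moved by less than the SD between libraries: -0.81 to -0.59 for the cytosolic class, -0.31 to -0.08 for the mitochondrial class, -1.01 to -0.11 for the scaffolds and -0.55 to -0.46 for cytosolic minus mitochondrial. Of the 39 members 34 kept the sign of their fold change under all 21 alternatives; Aars2, Aimp1, Hars2, Lars2 and Wars2 did not. Calls depended on the test. Limma called 0 genes with all libraries and at an FDR of 0.1, other pseudocounts, filters or TMM scaling, and 0 to 5 genes with 1 library left out (5 without control library 3, where edgeR also called 5), none of them a member. DESeq2 called 129 genes and 11 members with all libraries, and 711 and 15 without control library 3. DESeq2 without the other libraries, an alternative chosen after seeing the data, gave 2138 genes and 19 members (control 1), 86 and 8 (control 2), 61 and 7 (knockout 1), 24 and 4 (knockout 2) and 27 and 3 (knockout 3). The cause was not tested. Replicate numbers only name the libraries: same-numbered libraries correlated at 0.26, 0.20 and -0.02 in their deviations from group means, and not every library correlated best with its own number; limma with the replicate block called 0 genes and 0 members, with a cytosolic median of -0.69. With 3 libraries a group, differences as small as those of most mitochondrial genes were not detectable at this replication, which does not show them absent.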

Other observations

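The E-box letters CACGTG, bound by Myc, Max and related factors, were searched in the same promoter windows. They occurred in 4 of 13 cytosolic genes (Aars, Farsb, Iars and Tars), in 1 of 14 mitochondrial genes (Ears2) and in 0 of 3 scaffolds, and in 7.15% of all windows and 9.77% of those of genes tested. Counted by gene, 8.09% of all genes with a window and 11.6% of genes tested with a window held them. These matches are a description of letters. The palindrome reads the same on both strands.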
